A study of Mus musculus with 14 samples.

Results

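The ribosomal protein genes were described as 1 set in chromatin immunoprecipitation sequencing (ChIP-seq) data for the chromatin remodeller subunit Smarca4, the methyltransferase Ezh2 and the histone marks H3K27me3, H3K27ac and H3K4me3. Members were the protein-coding genes of GENCODE M21 (mouse build mm10) whose symbol starts with Rpl or Rps followed by a digit, p or a, leaving out the Rps6k kinases, and 92 of 21938 protein-coding genes met this rule. Of the 92 genes, 46 encode canonical proteins of the large (60S) subunit and 31 of the small (40S) subunit. A further 7 are paralogues of canonical proteins, some of them tissue-restricted or retrotransposed. Another 2 genes, Rpl7l1 and Rps19bp1, share the symbol prefix without encoding a core subunit protein, and 6 have a pseudogene name but are annotated as protein-coding.

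All libraries came from 81K1 mouse embryonic stem cells (mESC), a single clone derived from OG2 cells that carries a doxycycline-inducible short hairpin RNA against Smarcb1 in the Rosa26 locus. Control cells carried the same cassette and were left without doxycycline, and knockdown (kd) cells received 1 µg/ml doxycycline for 72 h. There were 10 immunoprecipitated libraries, 1 per antibody and condition, and 4 inputs. A difference between control and kd therefore compares 2 libraries, has no replicate check and carries no p-value. Smarca4 and H3K27me3 were immunoprecipitated by a service provider and the other antibodies in the authors' laboratory, so differences between those antibodies and differences between laboratories cannot be told apart. The region lists do not give the number of reads, for which the study's methods state a nominal value for Ezh2, H3K27ac and H3K4me3 alone. The lists held between 5364 peaks (Ezh2, kd) and 79014 peaks (Smarca4, control). As a check of the labelled cell type, 7 of 8 stem cell marker genes carried H3K4me3 at the 5′ end in both conditions and 6 (control) and 7 (kd) carried H3K27ac, whereas H3K27me3 was listed at 2 of these 8 genes in control (Klf4 and Esrrb) and 1 in kd (Esrrb). All 3 neural and all 4 mesendoderm marker genes carried H3K27me3 and none carried H3K27ac, while H3K4me3 was listed at 2 of each of these groups in both conditions.

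Ribosomal protein genes encode the structural proteins that assemble with ribosomal RNA into the ribosome. They are transcribed at high and coordinated rates in growing cells, and their mRNAs typically begin with a tract of pyrimidines through which translation is controlled by growth signals. H3K27ac marks active promoters, H3K4me3 is found at active promoters and at developmental genes that also carry H3K27me3, H3K27me3 is laid down by the Polycomb complex that contains Ezh2 and marks silent developmental genes, and Smarca4 is the ATPase of the BAF remodelling complex, of which Smarcb1 is a core subunit.

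The members were short genes, with a median length of 3226 bp beside 17425 bp over all protein-coding genes. A small nucleolar RNA (snoRNA) gene lay inside 30 of the 92 (32.6%, against 1.18% of all protein-coding genes), the most in Rpl4 with 5. Only 9 (9.78%) had another protein-coding gene starting within 1 kb on the opposite strand upstream, near the share over all genes (6.78%). A single pair of members shared an H3K4me3 and an H3K27ac island in each condition, and no 2 members shared a Smarca4 peak.

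Promoter sequences were available for 66 of the 92 members in the RefSeq promoter table (GRCm38.p6), each spanning 250 bases before and 50 after the annotated start. The following stretches, from 100 bases before to 20 after the start, show the large- and the small-subunit gene with the highest Smarca4 rank in control cells among those in the table (Rpl23, chr11:97782420-97782539, minus strand; Rps10, chr17:27635225-27635344, minus strand), both genes in the table with the largest rise in Smarca4 rank after kd (Rps27, chr3:90213629-90213748, minus strand; Rps7, chr12:28635934-28636053, minus strand, chosen after their values were seen), and a paralogue without a region of any list (Rpl39l, chr16:10170128-10170247, plus strand). Capitals mark the motifs CCGGAAG (bound by ETS-family factors), AAGATGG (bound by YY1), GGGCGG (bound by Sp1-type factors), CACGTG (the E-box bound by Myc) and the palindromic NRF1 motif on either strand, TATAA between 45 and 15 bases before the start, and a C at the start with the pyrimidines that follow it. CCGGAAG and AAGATGG can share their A, A and G where they follow each other. The RefSeq start of Rps10 lies 1425 bp inside the GENCODE 5′ end, and those of the other 4 genes within 3 bp of it.
Rpl23: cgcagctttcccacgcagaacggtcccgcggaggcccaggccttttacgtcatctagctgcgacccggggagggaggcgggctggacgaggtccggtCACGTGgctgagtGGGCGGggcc
Rps10: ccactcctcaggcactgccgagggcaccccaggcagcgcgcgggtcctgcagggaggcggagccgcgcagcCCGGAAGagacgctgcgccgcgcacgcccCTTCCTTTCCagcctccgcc
Rps27: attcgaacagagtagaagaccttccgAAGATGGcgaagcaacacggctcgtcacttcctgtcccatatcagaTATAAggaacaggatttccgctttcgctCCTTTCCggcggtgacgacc
Rps7: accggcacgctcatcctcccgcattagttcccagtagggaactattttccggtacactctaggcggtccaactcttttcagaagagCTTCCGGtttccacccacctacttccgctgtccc
Rpl39l: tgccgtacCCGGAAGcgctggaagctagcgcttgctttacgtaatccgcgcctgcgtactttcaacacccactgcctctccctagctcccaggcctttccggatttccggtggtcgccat

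Over the 66 promoters, the CCGGAAG motif was found in 25 (37.9%), against 12.3% of the 16533 protein-coding promoters in the table, and AAGATGG in 9 (13.6% against 6.43%). A C at the start followed by at least 4 pyrimidines was present in 13 (19.7% against 2.19%), and a C followed by at least 6 pyrimidines began within 20 bases of the start in 34 (51.5% against 21.1%). The GGGCGG motif was found in 40 (60.6% against 48.2%), TATAA in 5 (7.58% against 4.75%), CACGTG in 5 (7.58% against 8.10%) and the NRF1 motif in 1 (1.52% against 1.38%), so the last 2 were near the share over all promoters. All 5 promoters with CACGTG belonged to the large subunit, and 4 of the 5 with TATAA to the small subunit. The median GC content was 57.5% (57.0% over all promoters), while the ratio of observed to expected CpG was 0.863 against 0.602. In the printed sequences, Rps10 and Rps27 have a C with at least 4 pyrimidines at the start itself, and Rpl23, Rps7 and Rpl39l do not.

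Smarca4 and Ezh2 regions were MACS2 peaks and the histone marks were SICER islands, and a gene was counted as carrying a mark when a listed region overlapped the 1 kb to either side of its 5′ end by at least 1 bp. H3K4me3 was present at 82 of the 92 members in control and 83 in kd (89.1% and 90.2%), against 56.6% and 60.4% of all protein-coding genes. Smarca4 was present at 79 and 83 members (85.9% and 90.2%), against 62.5% and 63.5%. H3K27ac was present at 54 and 79 members (58.7% and 85.9%), against 16.0% and 30.9%. H3K27me3 was present at 9 and 3 members (9.78% and 3.26%), against 34.9% and 29.2%. Ezh2 was listed at none of the 92 members in either condition, against 7.13% and 12.6% of all protein-coding genes. The Ezh2 peak nearest to any member's 5′ end lay 3075 bp from that of Rpl5 in control and 3843 bp from that of Rps27rt in kd. H3K4me3, H3K27ac and Smarca4 thus stood above the share over all genes in both conditions, and H3K27me3 and Ezh2 below it.

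**Figure D1:**
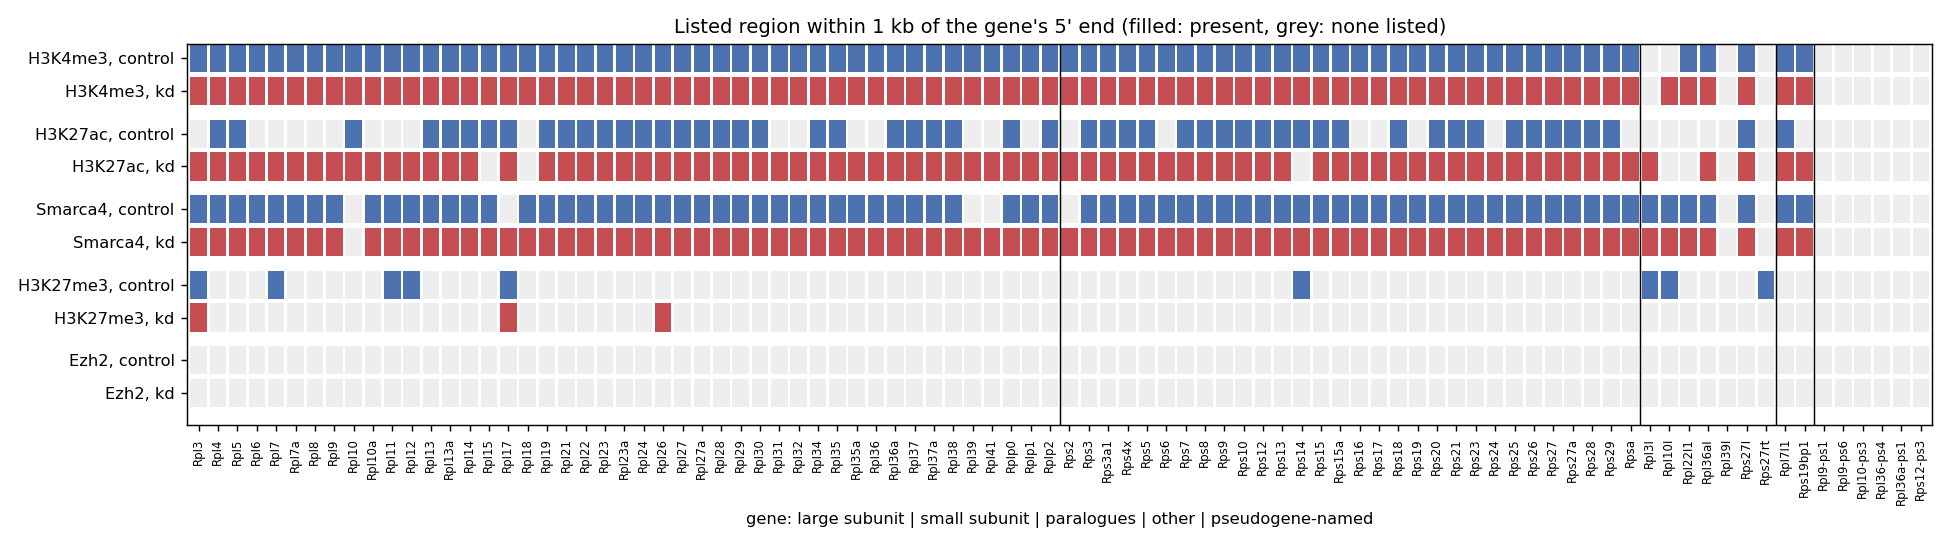
Each column is 1 of 90 ribosomal protein genes and each row 1 antibody and condition; a filled cell (blue, control; red, kd) means that a listed region lay within 1 kb of the 5′ end. H3K4me3 was filled for all 75 canonical genes shown in both rows, H3K27ac for 51 of them in control and 72 in kd, and both Ezh2 rows were empty.

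All 77 canonical genes carried H3K4me3 in both conditions. The combination of H3K4me3, H3K27ac and Smarca4 without H3K27me3 or Ezh2 was found at 51 members in control and 74 in kd, against 12.7% and 24.3% of all protein-coding genes. H3K4me3 and Smarca4 with no other listed feature were found at 21 members in control (22.8%, near the 20.0% over all protein-coding genes) and at 5 in kd (5.43% against 12.9%). Both H3K4me3 and H3K27me3 were listed at 6 members in control and 3 in kd (6.52% and 3.26%), against 21.2% and 21.6% of all protein-coding genes. By H3K27ac, 52 of the 77 canonical genes carried a mark of active promoters in control. H3K4me3 and Smarca4 were also listed together with H3K27me3, without H3K27ac or Ezh2, at 13.3% of all protein-coding genes and at 4 members in control.

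The window around the 5′ end was extended to the gene region, from 1 kb upstream to the 3′ end. There, H3K4me3 was found at 83 and 84 members in control and kd (63.4% and 68.1% of all protein-coding genes), Smarca4 at 81 and 83 (70.3% and 71.7%), H3K27ac at 57 and 81 (32.4% and 48.2%), H3K27me3 at 9 and 4 (42.4% and 35.6%) and Ezh2 at 0 and 0 (12.6% and 15.4%). The gene region thus added at most 3 members to any of these counts.

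Of the 15 members outside the canonical subunits, 5 carried H3K4me3 in control and 6 in kd. None of the 6 genes with a pseudogene name (Rpl9-ps1, Rpl9-ps6, Rpl10-ps3, Rpl36-ps4, Rpl36a-ps1 and Rps12-ps3) carried a region of any list. Among the 7 paralogues, Rpl22l1, Rpl36al and Rps27l carried H3K4me3 and Smarca4 in both conditions. Rpl39l, a paralogue of Rpl39 known from testis, carried nothing, with the nearest H3K4me3 island 21775 bp (control) and 22575 bp (kd) away. Rps27rt, a retrotransposed copy of Rps27, carried only H3K27me3, in control. Rpl10l, the autosomal paralogue that stands in for X-linked Rpl10 in male germ cells, carried Smarca4 in both conditions, H3K27me3 in control alone and H3K4me3 in kd alone, the only member to appear in just 1 of the H3K4me3 lists (kd alone, 4.59% of all protein-coding genes; control alone, 0 members against 0.779%). Rpl3l, the paralogue of Rpl3 in muscle, carried Smarca4 in both conditions, H3K27me3 in control alone and H3K27ac in kd alone.

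H3K4me3 islands at members were wide and covered most of the gene region at most members. The median width was 6400 bp in control and 5600 bp in kd, beside 3000 bp and 2600 bp over all protein-coding genes with an island. Relative to the 5′ end, the median edges were -1474 bp and 4304 bp in control and -1356 bp and 4090 bp in kd, where negative values lie upstream. They held the whole gene region of 50 members in control and of 36 in kd. The median share of the gene region inside islands over members was the whole of it in control and 95.3% in kd. Over all protein-coding genes it was 4.07% in control and 5.00% in kd. These medians include genes without an island. Members are shorter genes, as given above, and the part of gene length in this contrast was not tested. Between the conditions, 27 of the 82 members with an island in both lists had a wider island in kd, 48 a narrower one and 7 the same width, and the share of wider islands over all genes was 28.5%. Narrower H3K4me3 islands in kd were thus seen at members about as at other genes.

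The widest H3K4me3 islands in control lay at Rps15a (10800 bp), Rpl5 (10200 bp) and Rpl23a (10000 bp), and measured 8400 bp, 8800 bp and 16200 bp in kd. Rpl5, with Rpl11, binds 5S ribosomal RNA and can restrain Mdm2, the ubiquitin ligase of p53. The narrowest lay at the annotated 5′ ends of Rps14 (2000 bp), Rpl3 (2600 bp) and Rps19bp1 (2600 bp), and measured 1800 bp, 2200 bp and 2200 bp in kd. For Rps14 and Rpl3 this 5′ end is not where the commonly annotated protein-coding transcript starts, as described further on. Many islands were listed with a p-value of 0, at 53 of 82 members in control and 57 of 83 in kd (2000 of 26130 and 4619 of 33506 islands in all), and these could not be ranked among themselves. H3K4me3 is therefore described here by width only.

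**Figure D2:**
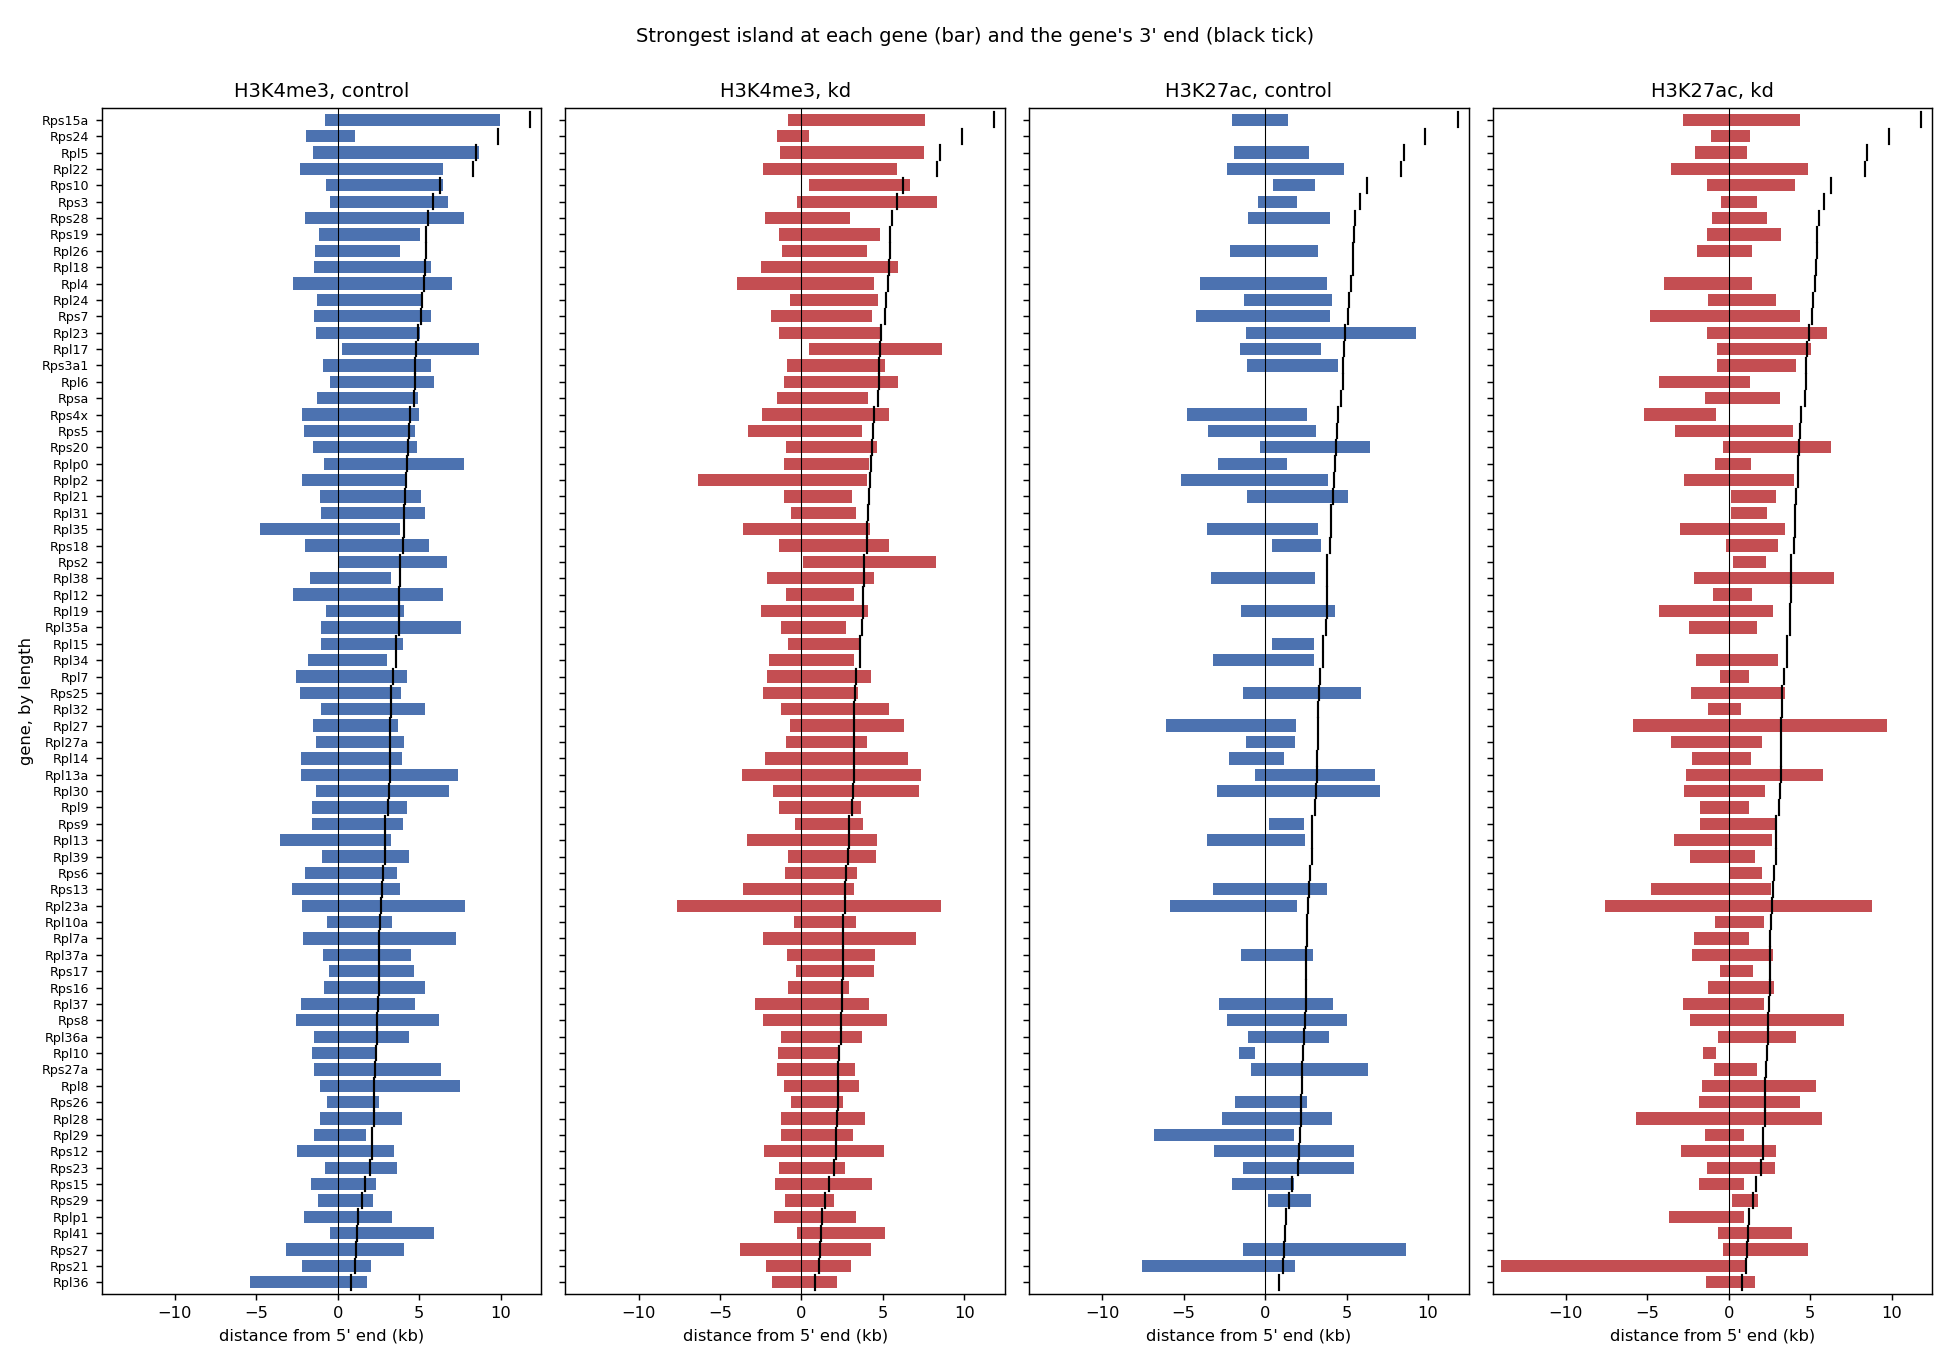
Each row is 1 of 72 canonical ribosomal protein genes, ordered by length, with the strongest H3K4me3 or H3K27ac island near its 5′ end drawn as a bar in kb from the 5′ end (blue, control; red, kd) and the 3′ end as a black tick; Rpl3, Rpl11 and Rps14, the longest, are left out. Most H3K4me3 bars reach or pass the tick, and H3K27ac bars are missing in more rows in control than in kd.

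Smarca4 peaks were narrow and lay just inside the gene. Their median width at members was 815 bp in control and 1099 bp in kd (870 bp and 817 bp over all protein-coding genes with a peak). The most frequently covered position was 200 bp after the 5′ end in control, where 69 members were inside a peak, and 300 bp after it in kd, where 77 were. The only canonical gene without a Smarca4 peak in both lists was Rpl10 (chromosome X, 74270812 to 74273135), which encodes a protein joined to the large subunit late in its assembly. The nearest peak to its 5′ end was 15720 bp away in control and 15668 bp in kd, whereas an H3K4me3 island held the 5′ end in both conditions.

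No member had a Smarca4 peak in control alone (2.69% of all protein-coding genes did), and 4 members, Rpl17, Rpl39, Rpl41 and Rps2, had one in kd alone (3.69%). For Rpl17 and Rps2 this depended on the start used. At Rpl39, which lines the exit tunnel of the ribosome, the stronger of 2 kd peaks had a MACS2 score of 66 and lay 233 bp from the 5′ end, while the nearest control peak was 35826 bp away. At Rpl41, the smallest ribosomal protein, there were 2 kd peaks in the window, the stronger of which scored 188 and began 897 bp after the 5′ end, the nearer one lay 46 bp from it, and the nearest control peak was 1579 bp away.

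**Figure D3:**
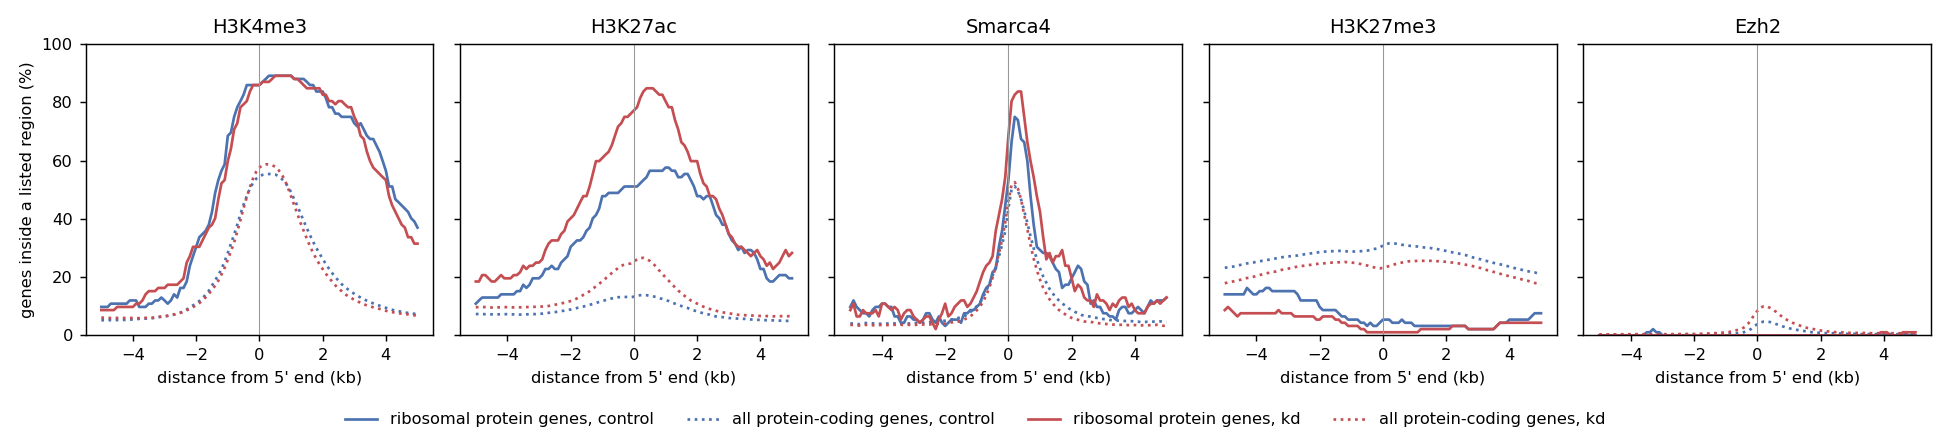
The share of genes inside a listed region is plotted against the distance from the 5′ end in kb, for the 92 ribosomal protein genes (solid) and all protein-coding genes (dotted), control in blue and kd in red. Smarca4 covers members in a narrow band just after the start, up to 83.7% in kd, H3K4me3 reaches further into the gene than over all genes, and H3K27me3 and Ezh2 lie below the share over all genes near the start.

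Smarca4 peaks at members ranked higher in kd, and so at the median did those of the related gene groups given further on. Since scores are not scaled between libraries, each peak was placed by its percentile among all peaks of its own list (100 is the strongest), and the strongest peak at a gene was used. The median percentile over members was 78.5 (n = 79) in control and 88.4 (n = 83) in kd, whereas over all protein-coding genes with a peak it was 85.3 and 83.2. In control 12 members had a peak in the top 10% of the list (15.2%), fewer than over all genes with a peak (38.4%). In kd 40 did (48.2%), more than over all genes (32.6%). Of the 79 members with a peak in both lists, 64 stood at a higher percentile in kd and 15 at a lower one, where 47.2% of all protein-coding genes stood higher. The median change was 9.19 percentile points (quartiles 1.19 and 22.62), against -0.58 over all genes. Of the same 79 members, 54 peaks were wider in kd, where 45.2% of all peaks at genes were.

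The same count was made against genes that also carried H3K4me3 without H3K27me3 in control, a set added after the values were seen. Of 7093 such genes 4144 stood higher in kd, with a median change of 1.58 points, between the members and all genes. Ranked only among peaks at protein-coding 5′ ends, 68 of the 79 members stood higher in kd, with a median change of 21.53 points. By that ranking 64.2% of the genes with H3K4me3 and no H3K27me3 stood higher (median 6.21 points), and 52.9% of all genes (1.26 points). Both subunits took part, with 35 of 42 large-subunit genes (median change 9.04 points) and 25 of 30 small-subunit genes (10.97 points) at a higher percentile. The scores as listed, which are not scaled to each other, had a median of 127 in control and 227 in kd over the 79 members. With both Smarca4 lists (79014 and 72339 peaks) shortened to equal numbers, 65 of 79 members stood higher.

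**Figure D4:**
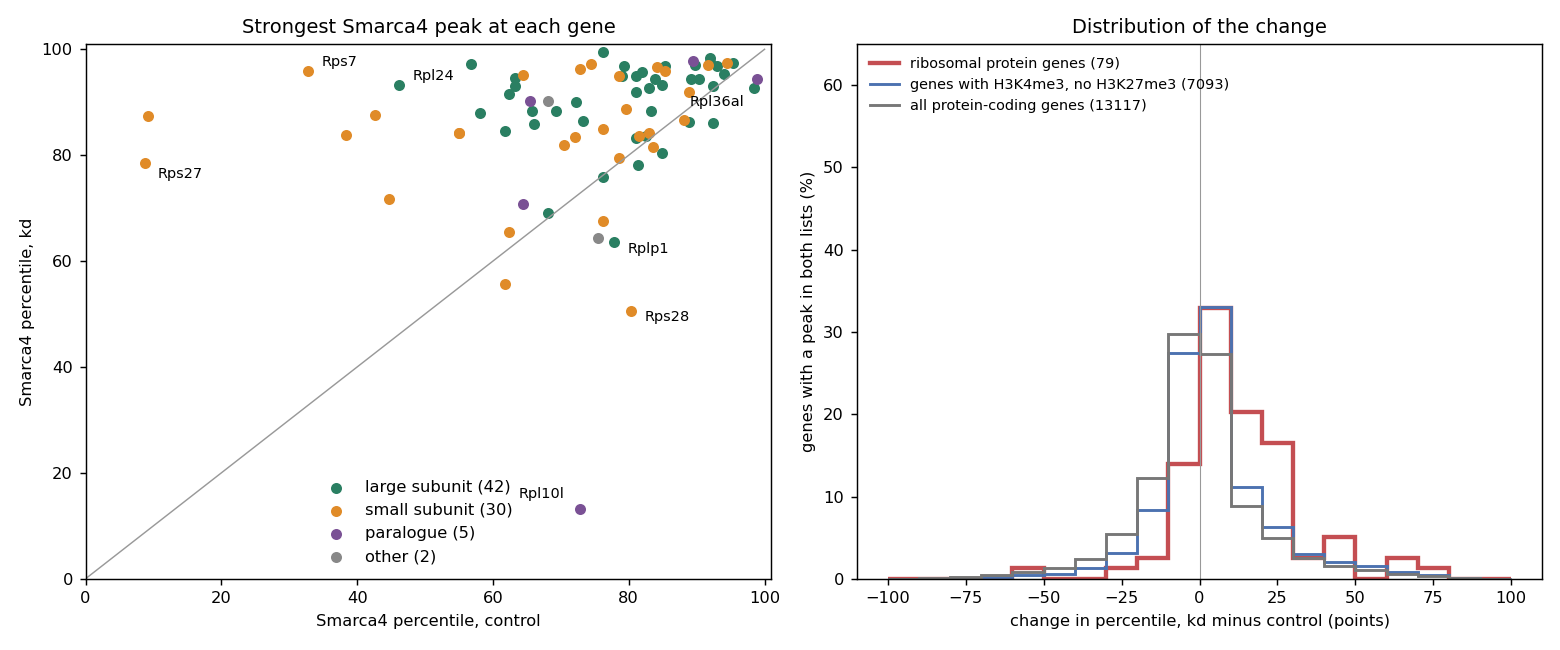
Left, the percentile of the strongest Smarca4 peak at each of 79 ribosomal protein genes in control (x) and kd (y), coloured by subunit, with the line of equality; right, the distribution of the change in percentile points for those genes, for genes with H3K4me3 and no H3K27me3, and for all protein-coding genes with a peak in both lists. Of the 79 points 64 lie above the line, and Rps27 (8.69 and 78.6) and Rps7 (32.8 and 95.9) are among those farthest above it.

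Large rises were seen at small-subunit genes that ranked low in control. Rps27 had a Smarca4 score of 29 (percentile 8.69) in control and 136 (78.6) in kd. Rps7 had a score of 49 (32.8) in control and 325 (95.9) in kd. Rps27 had the lowest percentile of all members in control, and both small-subunit genes lay above the members' control median of 78.5 in kd.

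The largest falls were at Rpl10l (score 108, percentile 72.8 in control; 32, 13.2 in kd), at the small-subunit gene Rps28 (136, 80.3; 64, 50.6) and at Rplp1, a protein of the stalk that recruits elongation factors (126, 77.9; 84, 63.6). The highest percentiles in control were those of Rpl36al (447, 98.9), Rpl7 (423, 98.5) and Rpl23 (290, 95.3), and in kd these genes stood at 293 (94.3), 262 (92.7) and 371 (97.4). Members at the top of the control list thus stood near the top in kd as well.

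H3K27ac differed most between the lists at members. It was listed in both conditions for 52 members, in control alone for 2 (1.83% of all protein-coding genes) and in kd alone for 27 (16.8%). Of the 38 members without H3K27ac in control, 27 had it in kd (71.1%), whereas 20.0% of all protein-coding genes without it did, and 49.9% of the 4823 genes that had neither H3K27ac nor H3K27me3 but carried H3K4me3 in control. The members among the latter numbered 24, of which 22 had it in kd. Among canonical genes 24 of 25 had it (96.0%). The kd list was longer, with 51100 islands against 39091. With both lists shortened to equal numbers, 26 members still carried H3K27ac in kd alone.

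Among the strongest H3K27ac islands in kd alone were those at Rps2 (percentile 94.0 of the kd list, 2000 bp wide), Rps16 (92.2, 4000 bp), Rpl10a (91.4, 3000 bp) and Rps24 (89.9, 2400 bp). These include proteins of both subunits. The weakest was at Rpl7a (15.8, 3400 bp). Rpl15 and Rps14 had H3K27ac in control alone, and Rpl18 was the only canonical gene without it in both lists. For Rps24, Rps14 and Rpl18 these H3K27ac calls depended on the start used, as described further on.

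At the 52 members with H3K27ac in both lists, 45 islands stood at a higher percentile in kd, with a median change of 25.46 points, and 80.2% of all protein-coding genes with both also did (median 24.79 points). Of these islands 22 were wider in kd, 29 narrower and 1 unchanged, against 38.4% wider over all genes. The shares for rank and width were thus near those over all genes, whereas the share newly listed in kd was above it. The median H3K27ac width at members was 6300 bp in control (n = 54) and 4600 bp in kd (n = 79), beside 4000 bp and 2800 bp over all genes with an island.

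The widest H3K27ac islands in control lay at Rpl23 (10400 bp; 7400 bp in kd) and, at 10000 bp each, at Rpl30 (5000 bp in kd), Rps27 (5200 bp) and Rpl7l1 (5800 bp). The narrowest were at Rpl10 (1000 bp in control, 800 bp in kd), at the annotated 5′ end of Rps14 (1200 bp, none in kd) and at Rps9 (2200 bp, 4600 bp in kd), where the island moved from percentile 3.49 to 92.8.

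Canonical genes with and without H3K27ac in control were compared in the other features. The 52 with it had a median H3K4me3 width of 6400 bp in control and 6200 bp in kd, and the 25 without it 6200 bp and 5000 bp. The median Smarca4 percentile was 79.4 (n = 50) in control and 88.3 (n = 51) in kd at genes with H3K27ac, and 78.8 (n = 22) and 92.0 (n = 25) at genes without it. Their median lengths were 3428 bp and 3243 bp. H3K27ac in kd was narrower at the 24 genes where it appeared (median 3200 bp) than at the 50 where it was already listed (5400 bp). Among the 30 canonical genes that host a snoRNA gene, 20 carried H3K27ac in control and 30 in kd, and among the 47 others 32 and 44. The small subunit had H3K27ac at 24 of 31 genes in control and 30 in kd, and the large subunit at 28 of 46 and 44.

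The annotated 5′ end was not always the start of the main coding transcript. For 7 members the lowest-numbered transcript in the consensus coding sequence (CCDS) set starts over 1 kb further in, at 27498 bp for Rps14, 8462 bp for Rpl3, 4865 bp for Rpl3l, 3556 bp for Rps24, 2614 bp for Rpl18, 1994 bp for Rps2 and 1919 bp for Rpl17. Windows around the CCDS starts were added after the values were seen. With them, Smarca4 was found at 81 members in control and 82 in kd (62.2% and 63.2% of all protein-coding genes), H3K27ac at 56 and 80 (15.6% and 30.4%) and H3K27me3 at 5 and 1 (34.3% and 28.4%). Of the 77 canonical genes, 74 and 76 then carried Smarca4, 54 and 76 H3K27ac, and 3 and 1 H3K27me3.

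At the CCDS start of Rps14, which belongs to the platform of the small subunit, Smarca4 had a score of 181 in control and 475 in kd (percentiles 87.6 and 98.9), and H3K27ac was listed in both conditions (percentiles 65.2 and 96.0). At that of Rps24 the Smarca4 scores were 187 and 475 (88.2 and 98.9), and H3K27ac was again listed in both (63.8 and 95.7). At that of Rpl18 H3K27ac was listed in kd (percentile 85.6) and none lay within 104071 bp in control. At that of Rps2 a Smarca4 peak was listed in both conditions (102 and 207), and at that of Rpl17 too (274 and 445). The Smarca4 peak in kd alone at Rps2 and Rpl17 was thus a matter of the window, as was H3K27ac in kd alone at Rps24.

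Rpl3, whose product lies near the peptidyl transferase centre, was the reference gene of the study's RT-qPCR. Around its annotated 5′ end (chromosome 15, 80091868, minus strand) Smarca4 had a score of 234 in control and 269 in kd, an H3K27me3 island was listed in both conditions (4000 bp and 4600 bp wide, percentiles 29.3 and 39.3), and H3K27ac was listed in kd alone. At its CCDS start Smarca4 had a score of 38 in control and 92 in kd (percentiles 19.3 and 66.5), H3K27ac was listed in both (43.6 and 85.2), H3K4me3 islands were 7600 bp and 8800 bp wide, and the nearest H3K27me3 island was 5795 bp away in both conditions.

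H3K27me3 was rare at members, and at canonical genes the islands near the 5′ end lay mostly upstream of it. It was in control alone at 7 members (8.15% of all protein-coding genes) and in kd alone at 1, Rpl26 (2.39%). At Rpl7, Rpl11, Rpl12 and Rpl26 the island ended 739, 573, 359 and 583 bp before the 5′ end and reached only the outer part of the window. Rpl11, annotated over 25164 bp, also had islands inside the gene in control and none in kd. Together with the upstream island, they covered 41.1% of its gene region in control. At Rpl17 it ended 242 bp after the 5′ end in control and 758 bp before it in kd. At Rps14 it began 503 bp after the distant 5′ end in control, and within the 1 kb window it was listed in control alone. At the paralogues Rpl10l, Rpl3l and Rps27rt the island held the 5′ end in control (800, 1000 and 8400 bp wide) and none was listed in kd. Ezh2 was listed for no member in control alone (0.283% of all protein-coding genes) or in kd alone (5.78%). A missing island in 1 list says that none was called there and is not a measured loss.

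Other genes of protein synthesis and turnover are given for comparison, by counts and by Smarca4 rank. Of 36 ribosome biogenesis genes H3K27ac was listed at 23 in control and 29 in kd, of 68 translation factors at 37 and 50, of 78 mitochondrial ribosomal protein genes at 24 and 48, and of 40 proteasome subunit genes at 16 and 22. Smarca4 was listed at 35 and 36 ribosome biogenesis genes, 61 and 65 translation factors, 69 and 77 mitochondrial ribosomal protein genes, and 35 and 36 proteasome genes. In the same order, the median Smarca4 percentile was 68.1 and 79.9, 83.9 and 87.5, 69.3 and 78.4, and 68.1 and 78.4. A higher median rank in kd was thus not particular to the members. The shares in the top 10% were 20.0% and 16.7%, 31.1% and 44.6%, 18.8% and 19.5%, and 22.9% and 19.4%. For H3K27ac, the canonical genes had the highest share of these lists in both conditions. Their 67.5% in control was close to the 63.9% of the biogenesis genes. Over all 92 members H3K27ac was listed at 54 in control, a lower share than that of the biogenesis genes, and at 79 in kd.

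**Figure D5:**
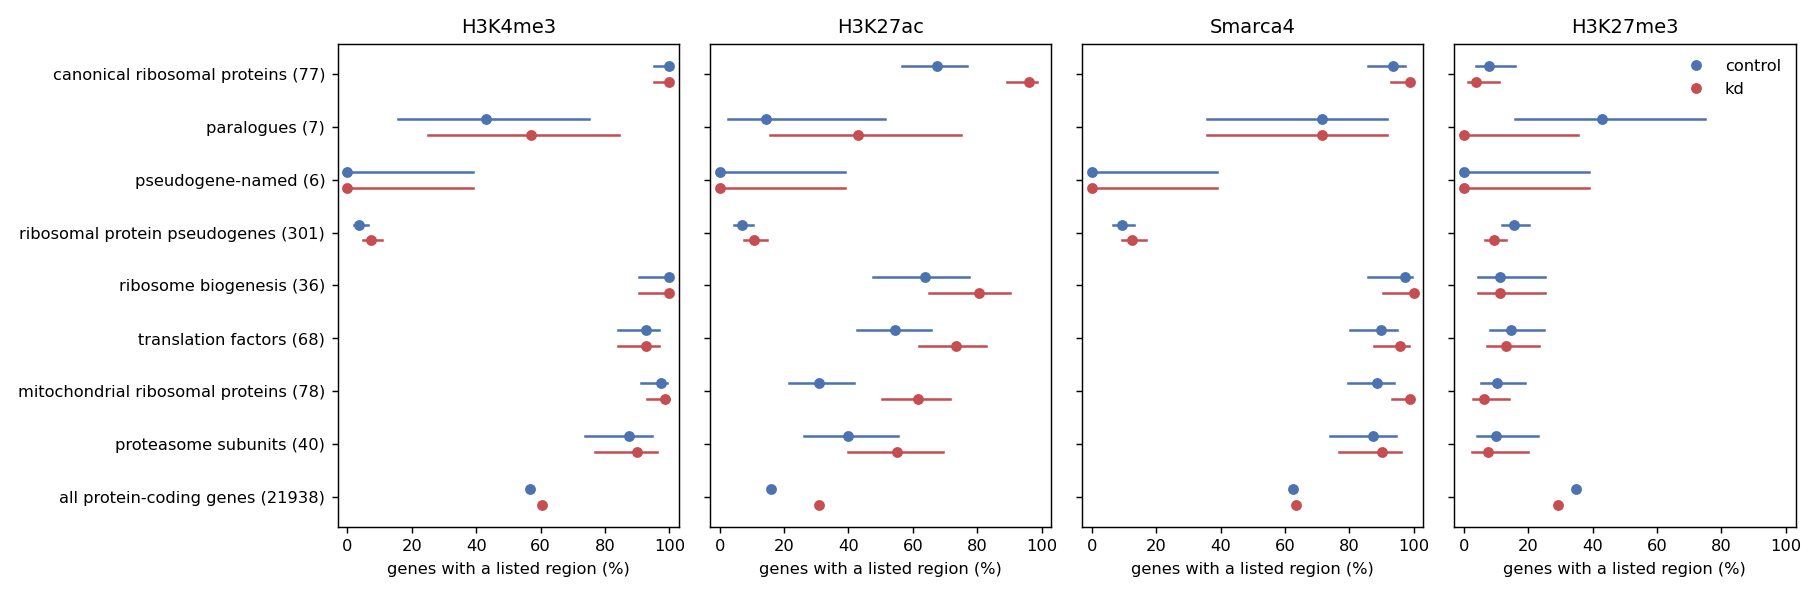
The share of genes with a listed region within 1 kb of the 5′ end is plotted for each gene group (number of genes in brackets), control in blue and kd in red; lines are Wilson 95% intervals, which cover counting error over genes only. Canonical ribosomal protein genes stand at 67.5% and 96.1% for H3K27ac, and annotated ribosomal protein pseudogenes at 6.98% and 10.6%.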

How the data were processed

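ChIP-seq of 5 antibodies in 81K1 mESC was taken from the region lists that the authors deposited, 1 list per library. Per the study's methods, reads were trimmed, aligned to mm10 and filtered to unique alignments with SAMtools 1.9, and the submitters' processing notes also name Trim Galore and Bowtie2. Peaks of Smarca4 and Ezh2 were called by the authors with MACS2, whose deposited score is in column 5, and islands of H3K27me3, H3K27ac and H3K4me3 with SICER, whose deposited value is a p-value. The methods name the input as background, whereas names inside the MACS2 files refer to IgG. Neither value is scaled between libraries, and the number of reads is not given in the lists.

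The members, gene lists and comparisons were chosen with earlier results of these data known. Regions on the assembled chromosomes were overlapped with GENCODE M21 (the methods name M23, not used here) in Python 3.11.15 with pandas 2.3.3 and numpy 2.4.6, by at least 1 bp with 1000 bp to each side of a gene's 5′ end. Strength is the percentile of a region's score or -log10 p within its own list, with ties averaged. Motifs were searched in the RefSeq promoter table. No test between conditions was possible with 1 library each, so counts and medians stand beside those over all protein-coding genes. Wilson intervals (scipy 1.17.1) cover counting error only. The overlap step and the choice of the strongest region were tested on simulated data. Genes named with values were Rpl3, members without an active mark or with H3K27me3, the extremes of Smarca4 percentile, its change, and island width, and the 5 strongest H3K27ac islands in kd alone. A few of the genes so named are not reported here.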

Additional observations from a re-analysis of the deposited data

How the results depend on the processing

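The limits are those of region lists: 1 library per condition, read numbers that the lists do not give, values that are not scaled between libraries, and a threshold set by each caller. No paired analysis was possible because each antibody and condition has 1 library, and for the same reason no library was left out in turn.

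Under 10 alternative settings the number of members with Smarca4 at a higher percentile in kd stayed between 55 of 75 and 68 of 79, and the median change between 8.95 and 12.29 points, except 21.53 points when ranked among 5′ end peaks alone. All 10 were applied to this count and its median after seeing the data.

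H3K27me3 counts moved most. Members with it within 500 bp numbered 1 in kd, and within 2500 bp 16 in control and 9 in kd. With a stricter p-value they numbered 5 and 1, also over the gene region, with 4 in control alone and 0 in kd alone. At CCDS starts they numbered 5 and 1. Canonical genes with it in control alone numbered 4, and 0 members had it in kd alone within 500 bp or 2500 bp. Smarca4 in kd alone fell to 1 member within 2500 bp, to 2 over all coding transcript starts and to 2 at CCDS starts, and Smarca4 in control alone numbered 1 under the stricter score and at CCDS starts. H3K27ac in control alone numbered 1 within 500 bp, within 2500 bp, over all coding starts, with 200 bp overlap and at CCDS starts, and 4 without repeat-masked regions. H3K4me3 in kd alone numbered 2 within 2500 bp and without repeat-masked regions, and 0 among canonical genes. The median Smarca4 percentile in kd was 81.7 under the stricter score.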

Other observations

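Ribosomal protein pseudogenes are processed copies of the same mRNAs without the parent promoters. Of 301 annotated pseudogenes whose symbols match the rule, H3K4me3 lay within 1 kb of the 5′ end of 11 in control and 22 in kd (3.65% and 7.31%), H3K27ac of 21 and 32 (6.98% and 10.6%), Smarca4 of 28 and 38 (9.30% and 12.6%), H3K27me3 of 47 and 28 (15.6% and 9.30%) and Ezh2 of 1 and 0. Reads filtered to unique alignments are fewer at near-identical copies, and the part of mappability in these low shares was not tested.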
